A study of Homo sapiens with 4 samples.

Results

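The hypoxia-inducible factor (HIF) pathway was examined through 36 genes, the HIF subunits, the enzymes that control them, and hypoxia-induced genes outside glycolysis. They were listed by symbol and matched to the Ensembl identifiers of the count tables, and all 36 were found among 62893 genes. RNA sequencing was done on total RNA of Hep-G2, a human hepatoma-derived line, at passage 21. The shFTO cells carried the shRNA TRCN0000246247 against FTO, an RNA demethylase, and the scramble cells carried SHC002. A single shRNA was used per group, and each group has 2 count tables, which the labels number as replicates 1 and 2 and which are called run 1 and run 2 here, for the reason given with the depth.

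HIF is a pair of proteins, an oxygen-labile alpha subunit and the stable partner ARNT. When oxygen is present, EGLN prolyl hydroxylases mark HIF alpha, and the VHL ubiquitin ligase sends it to degradation. At low oxygen HIF alpha escapes, joins ARNT and binds the DNA core ACGTG or GCGTG near genes for mitochondrial turnover, collagen processing, blood vessel growth and red cell production. The EGLN enzymes, the collagen hydroxylases, the lysine demethylases KDM3A and KDM4B, and FTO itself all belong to the oxygen-using, iron- and 2-oxoglutarate-dependent dioxygenases. In the liver the pathway is known for erythropoietin production and for shaping metabolism across the lobule.

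Between the 2 labelled replicates of each group no difference past sampling noise was found, so they count as 1 sample, which departs from the labels. A chi-square test of their counts gave 1.013 per degree of freedom for shFTO (p = 0.142) and 1.019 for scramble (p = 0.0648), against 118.5 to 120.4 between runs of different groups. Each group is therefore 1 sample with no replicate check, no test of the conditions is possible, and the intervals below cover counting error only. Totals were 20220271 and 20706611 gene-assigned reads in shFTO and 20047409 and 20474554 in scramble. FTO had 5.42 and 5.83 CPM (read counts set to a common depth with TMM-scaled library sizes) in shFTO runs and 31.4 and 28.5 CPM in scramble runs, 5.32-fold lower (4.63 to 6.13). Hepatocyte markers were present, with all 8 passing the filter on low counts and a summed level of 15313 to 15389 CPM in shFTO and 33366 to 33390 CPM in scramble. All 8 were lower in shFTO, 5 of them at least 2-fold, against 6.19% of all genes passing the filter. Their median log2 ratio of shFTO over scramble was -1.26. Among markers of other cells, 4 of 6 endothelial, 4 of 6 fibroblast and 4 of 6 leukocyte genes had any read, and PECAM1, KDR, DCN, LUM, PTPRC and CD3E had none. The endothelial sum was 2.14 to 2.24 CPM in shFTO and 1.06 to 1.35 CPM in scramble, and the fibroblast sum 39.6 to 43.6 CPM in shFTO and 54.9 to 56.7 CPM in scramble. Within the fibroblast list PDGFRB had 3.62 CPM in shFTO and 23.2 CPM in scramble, COL1A1 had 3.11 CPM in shFTO and 0.131 CPM in scramble, and ACTA2 had 34.8 CPM in shFTO and 32.4 CPM in scramble, so its genes went in different directions. The leukocyte sum, nearly all of it LYZ, was 232 to 233 CPM in shFTO and 3000 to 3006 CPM in scramble. The part of these differences in the results was not tested, and in bulk RNA fewer expressing cells and less RNA per cell cannot be told apart.

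Promoter windows were searched for the letters of the DNA core that HIF is known to bind. RefSeq promoter windows of 300 bases, from 250 before to 50 after the gene start (GRCh38.p14), were at hand for 30 of the 36 genes. The shares below leave out VEGFA, VHL, BNIP3L, LOXL2, NDRG1 and STC1, which had no window. ACGTG, on either strand, occurred in 15 of the 30 windows (50%), against 26.9% of 10255 promoters of tested genes and 21.6% of all 27305 promoters. For GCGTG the share was 53.3% (16 of 30), against 50.9% and 36.3%. Many members were named in the literature as HIF targets, and their promoters had a median GC content of 69.3%, against 65.3% for tested genes, so these shares are a description. Among the 14 windows of members at least 2-fold lower in shFTO, 8 held ACGTG and 7 held GCGTG, and among the 15 windows of the other tested members 7 and 8 did. Of the members at least 2-fold lower, EPO, with the largest decrease by pooled ratio, held only a GCGTG 14 bases past the start. EGLN3, PDK1 and MXI1 held no core in the window. The stretches below come from the 5 promoters of members at least 2-fold lower with the largest decreases and a core upstream of the start. They run 5′ to 3′ along the gene's strand, and capitals mark ACGTG or GCGTG on either strand. They lie at chr10:131982011-131982078 (minus) for BNIP3, chr5:122078285-122078456 (minus) for LOX, chr10:73096936-73096964 (minus) for P4HA1, chr4:185396667-185396714 (plus) for ANKRD37 and chr3:122384078-122384162 (plus) for FAM162A.
BNIP3: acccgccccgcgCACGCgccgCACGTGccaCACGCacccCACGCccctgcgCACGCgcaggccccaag
LOX: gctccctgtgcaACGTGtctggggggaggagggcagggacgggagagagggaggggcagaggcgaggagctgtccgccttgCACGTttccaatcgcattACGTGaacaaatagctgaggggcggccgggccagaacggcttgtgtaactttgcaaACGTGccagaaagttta
P4HA1: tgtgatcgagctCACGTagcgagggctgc
ANKRD37: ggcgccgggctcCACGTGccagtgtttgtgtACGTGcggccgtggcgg
FAM162A: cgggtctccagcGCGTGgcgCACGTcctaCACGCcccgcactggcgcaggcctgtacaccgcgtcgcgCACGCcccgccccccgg
The run CACGTG, in BNIP3 and ANKRD37, reads as the core on both strands. A match is only a run of letters, and binding was not measured.

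Most hypoxia-induced members were lower in shFTO, whereas the HIF subunits were not. Of 34 members with enough reads to test, 15 were at least 2-fold lower, or 44.1%, against 6.19% of all 13767 tested genes. The members were chosen with earlier results of these data known, so the gap between these shares is a description. Only LOXL2 was at least 2-fold higher, against 5.18% of all tested genes. The median log2 ratio of shFTO over scramble was -0.84 for the 34 members and 0.01 for all tested genes. With a counting interval that leaves out 1 as the rule, 27 members were lower and 6 higher, against 34.5% and 34.6% of all tested genes. The counts by role were as follows. Of 25 tested targets 13 were at least 2-fold lower (median log2 ratio -1.01), and of 9 tested subunits, sensors and brakes 2 were (median 0.16). Scaling bears on members near the threshold. With plain library sizes 11 members were at least 2-fold lower, since ADM, PLOD1, MXI1 and CITED2 lay just past the threshold, and all log2 ratios were 0.17 higher, with 659 genes lower and 940 higher by 2-fold in place of 852 and 713.

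**Figure D1:**
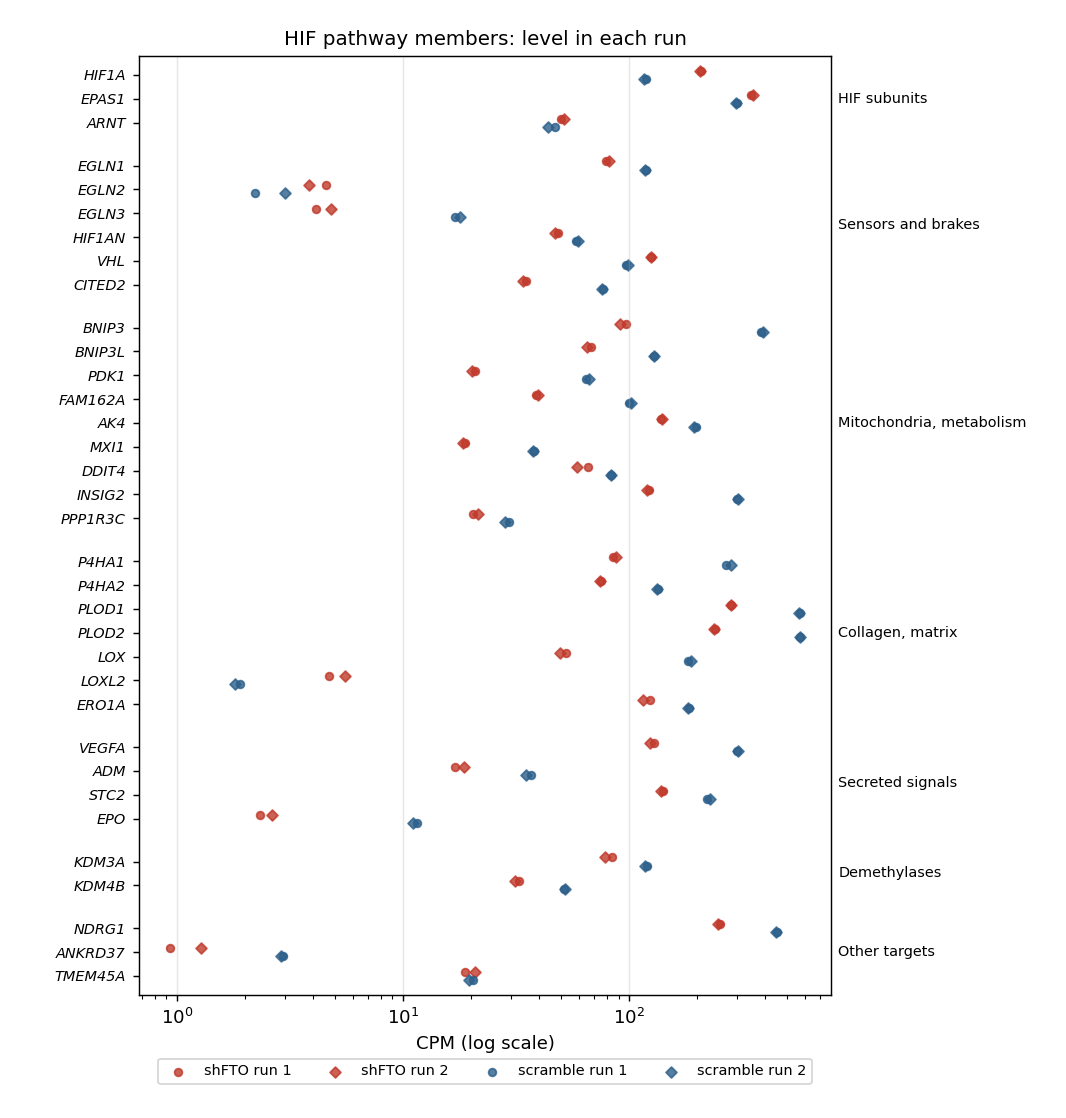
Level of each of the 34 tested members in each run, in CPM on a log axis, with shFTO runs in red above scramble runs in blue and members grouped by role. The 2 runs of a group lie close together, and shFTO lies to the left for most targets and to the right for HIF1A, EPAS1, ARNT, EGLN2, VHL and LOXL2.

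**Figure D2:**
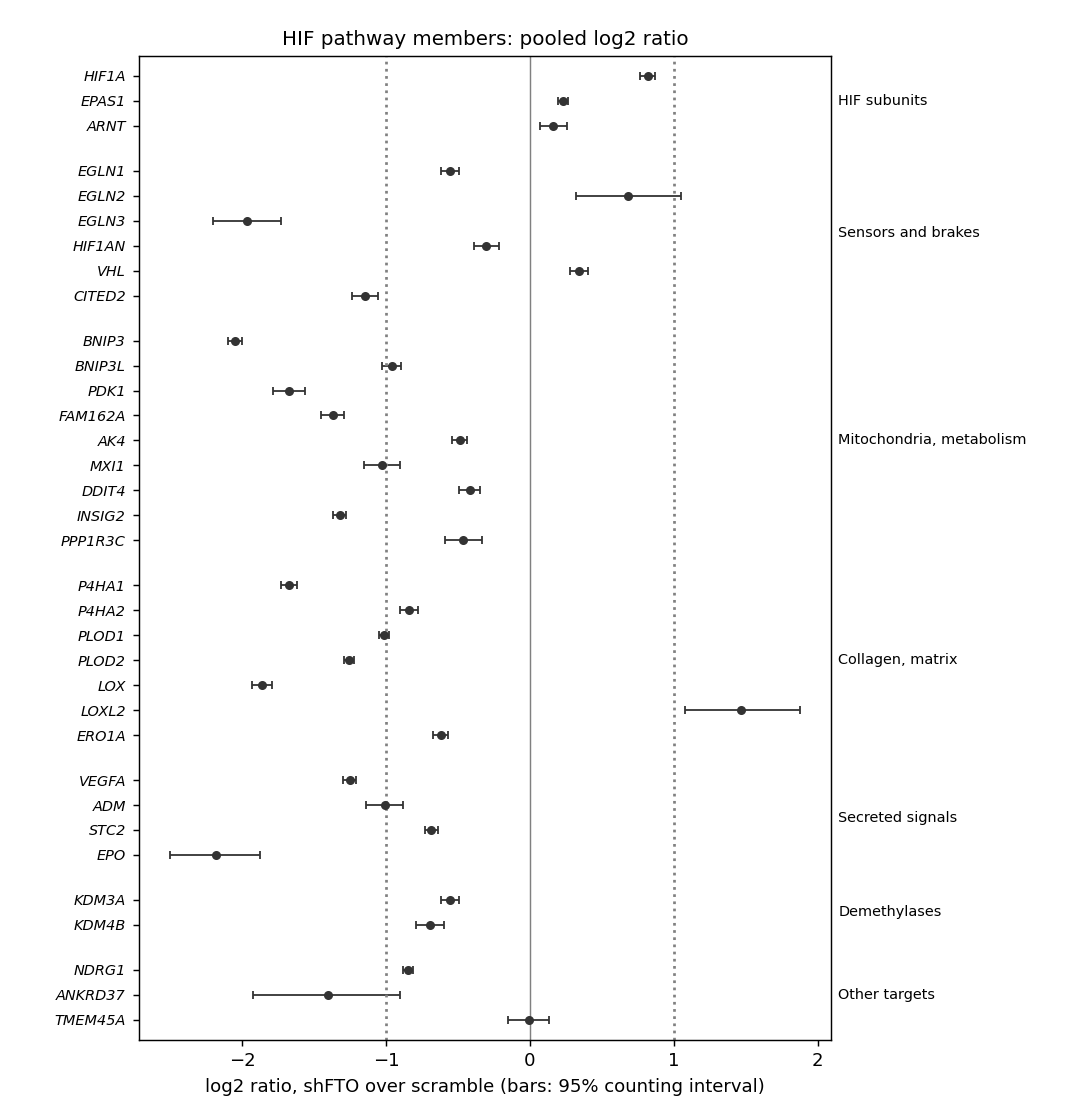
Pooled log2 ratio of shFTO over scramble for the same members, with 95% counting intervals as bars and dotted lines at 2-fold. EPO, BNIP3 and EGLN3 lie farthest to the left at -2.18, -2.05 and -1.96, and LOXL2 farthest to the right at 1.47.

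All 3 tested HIF subunits had higher transcript levels in shFTO. HIF1A (ENSG00000100644), the widely expressed alpha subunit, had 208 and 207 CPM in shFTO runs and 118 and 117 CPM in scramble runs, a ratio of 1.76 (95% counting interval 1.70 to 1.83). EPAS1 (ENSG00000116016), the HIF-2 alpha subunit that drives erythropoietin, had 348 and 354 CPM in shFTO and 302 and 297 CPM in scramble, a ratio of 1.17 (1.15 to 1.20). HIF1A stood at percentile 93.1 of the log2 ratios of all tested genes, against 70.2 for EPAS1. ARNT (ENSG00000143437), their common partner, had 50.1 and 51.7 CPM in shFTO and 47.1 and 43.9 CPM in scramble, a ratio of 1.12 (1.05 to 1.19). HIF3A, a less studied alpha subunit, was close to absent, with 0 and 1 reads in shFTO and 5 and 5 in scramble, and did not pass the filter on low counts. On so few reads its ratio was 0.0882 with a counting interval of 0.00203 to 0.620.

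The oxygen sensors and brakes went in both directions. EGLN3 (ENSG00000129521), the prolyl hydroxylase known to be strongly hypoxia-inducible, had 4.11 and 4.83 CPM in shFTO and 17.0 and 17.9 CPM in scramble, 3.90-fold lower (3.32 to 4.60). EGLN1, the main HIF prolyl hydroxylase and itself a HIF target, had 79.6 and 82.0 CPM in shFTO and 119 and 118 CPM in scramble, 1.47-fold lower (1.41 to 1.54). Both hydroxylases were thus lower in shFTO, EGLN3 by more. EGLN2, the family member not induced by hypoxia, had 98 and 84 reads in shFTO and 42 and 58 in scramble, a ratio of 1.60 (1.25 to 2.07). Its exons overlap the readthrough gene RAB4B-EGLN2 over 2012 bases, which is listed with 0 reads, so reads on shared exons may be missing from the EGLN2 counts. CITED2 (ENSG00000164442), which competes with HIF alpha for the coactivators CBP and p300, had 35.1 and 34.0 CPM in shFTO and 76.7 and 76.2 CPM in scramble, 2.21-fold lower (2.08 to 2.36). VHL, the substrate receptor of the ligase, was higher, with a ratio of 1.27 (1.22 to 1.32), and HIF1AN, the asparagine hydroxylase that blocks HIF's coactivator contact, was 1.23-fold lower (1.16 to 1.31). The hypoxia-inducible EGLN3, EGLN1 and CITED2 were therefore lower, as was HIF1AN, and EGLN2 and VHL were higher.

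All 9 members that act in mitochondria or metabolism were lower in shFTO, 5 of them at least 2-fold. BNIP3 (ENSG00000176171), a mitophagy receptor of the outer mitochondrial membrane, had 96.9 and 91.5 CPM in shFTO and 386 and 394 CPM in scramble, 4.14-fold lower (4.0 to 4.29). Its relative BNIP3L, also a mitophagy receptor, had 68.1 and 65.2 CPM in shFTO and 129.6 and 129.6 CPM in scramble, 1.95-fold lower (1.86 to 2.04). BNIP3 thus showed the larger decrease of the 2 receptors. BNIP3 has many pseudogene copies, of which BNIP3P1 took 416 reads in shFTO and 1403 in scramble, or 10.2 and 9.41 for every 100 BNIP3 reads. This leaves the BNIP3 level uncertain, as reads that match near-identical copies may be missing from its counts or lie with a copy. BNIP3P1 was itself 3.83-fold lower (3.43 to 4.28).

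PDK1 (ENSG00000152256), the kinase that shuts pyruvate dehydrogenase, had 21.0 and 20.2 CPM in shFTO and 64.7 and 66.4 CPM in scramble, 3.19-fold lower (2.95 to 3.44). FAM162A, a mitochondrial protein of the hypoxia response, had 38.9 and 39.5 CPM in shFTO and 100.5 and 102 CPM in scramble, 2.59-fold lower (2.44 to 2.74). For INSIG2, which holds SREBP in the endoplasmic reticulum, the levels were 123 and 120.1 CPM in shFTO and 302 and 305 CPM in scramble, 2.50-fold lower (2.42 to 2.58). All 3 were past the 2-fold threshold, as were 6.19% of all tested genes on the lower side. MXI1, an antagonist of MYC, was 2.04-fold lower (1.87 to 2.22), close to the threshold. The decreases were smaller for the mitochondrial adenylate kinase AK4 at 1.40-fold (1.36 to 1.45), for PPP1R3C, which targets a phosphatase to glycogen, at 1.38-fold (1.26 to 1.51), and for DDIT4, an inhibitor of mTORC1, at 1.34-fold (1.27 to 1.41).

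Enzymes that modify and cross-link collagen were mostly lower. P4HA1 (ENSG00000122884), a catalytic subunit of collagen prolyl 4-hydroxylase, had 85.0 and 87.6 CPM in shFTO and 268 and 283 CPM in scramble, 3.19-fold lower (3.07 to 3.31). Its sister subunit P4HA2 had 75.3 and 74.4 CPM in shFTO and 135 and 133 CPM in scramble, 1.79-fold lower (1.71 to 1.87). The lysyl hydroxylase PLOD2 had 239 and 237 CPM in shFTO and 569 and 571 CPM in scramble, 2.39-fold lower (2.34 to 2.45). P4HA1 thus showed the larger decrease of the prolyl pair. PLOD1, the other lysyl hydroxylase among the members, was 2.02-fold lower (1.98 to 2.06), with 282 and 282 CPM in shFTO and 572 and 569 CPM in scramble.

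LOX (ENSG00000113083), the secreted oxidase that starts collagen cross-linking, had 52.8 and 49.7 CPM in shFTO and 184 and 189 CPM in scramble, 3.63-fold lower (3.46 to 3.81). LOXL2 (ENSG00000134013), a related oxidase, went the other way on few reads, with 101 and 122 in shFTO and 36 and 35 in scramble, a ratio of 2.77 (2.11 to 3.67). LOXL2 was the exception among the 7 matrix enzymes. Its exons overlap ENTPD4 over 120 bases on the same strand, and ENTPD4 had 51.9 CPM in shFTO and 35.3 CPM in scramble. The part of that overlap was not tested. ERO1A, the oxidase that supplies disulfide bonds in the endoplasmic reticulum, was 1.53-fold lower (1.48 to 1.59).

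Among secreted signals, EPO (ENSG00000130427), which encodes the red cell hormone erythropoietin, showed the largest decrease of all tested members by pooled ratio. It had 50 and 58 reads in shFTO and 218 and 214 in scramble, or 2.33 and 2.64 CPM against 11.5 and 11.1 CPM, 4.54-fold lower (3.67 to 5.66). That interval holds the whole interval of BNIP3 and overlaps that of EGLN3, so the order of these genes is not settled. VEGFA (ENSG00000112715), the main growth factor of blood vessels, had 129.7 and 124 CPM in shFTO and 302 and 302 CPM in scramble, 2.38-fold lower (2.31 to 2.46). Both genes were past the 2-fold threshold. The vasodilator peptide gene ADM had 17.1 and 18.6 CPM in shFTO and 37.0 and 34.9 CPM in scramble, 2.01-fold lower (1.84 to 2.20). STC2, a stanniocalcin, was 1.61-fold lower (1.55 to 1.66). STC1, its relative, did not pass the filter, with 2 and 0 reads in shFTO and 5 and 5 in scramble, a ratio of 0.176 (0.0188 to 0.827).

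The histone lysine demethylases were lower by less than 2-fold. KDM3A had 84.4 and 78.2 CPM in shFTO and 120.3 and 118 CPM in scramble, 1.47-fold lower (1.41 to 1.53). KDM4B had 32.7 and 31.4 CPM in shFTO and 51.4 and 52.2 CPM in scramble, 1.62-fold lower (1.51 to 1.73). Both counting intervals left out 1, as did those of 34.5% of all tested genes on the lower side. NDRG1, a stress-responsive gene linked to growth arrest, had 253 and 248 CPM in shFTO and 452 and 448 CPM in scramble, 1.79-fold lower (1.75 to 1.84). ANKRD37, an ankyrin repeat gene, rested on 20 and 28 reads in shFTO and 56 and 56 in scramble and was 2.65-fold lower (1.87 to 3.79). It overlaps UFSP2 on the opposite strand over 909 bases, and as no strand setting is given, reads within those shared bases cannot be told apart. HIF1AN and NDUFB8 share 325 bases in this way, and LOX and SRFBP1 share 138, a small part of each member's exons. DDIT4 shares 847 of its 2058 exon bases with DDIT4-AS1, which is listed with 0 reads. ERO1A, P4HA2 and PDK1 share 581, 548 and 445 bases with antisense genes. Reads on such shared bases may be missing from the counts of these members. UFSP2 had 12.5 CPM in shFTO and 19.9 CPM in scramble. TMEM45A was the 1 tested member whose interval held 1, with 18.9 and 20.9 CPM in shFTO and 20.4 and 19.7 CPM in scramble, a ratio of 0.994 (0.901 to 1.10).

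The order of levels among members also differed between the groups when reads were set per kilobase of annotated exon (RPKM, from GENCODE release 29 exon lengths). PLOD1 ranked first in both, with 53.1 RPKM in shFTO and 107 RPKM in scramble. In shFTO EPAS1 at 48.1 RPKM and HIF1A at 40.3 RPKM came next, whereas in scramble they ranked 7 and 17 at 41.0 and 22.9 RPKM. BNIP3 ranked 12 in shFTO at 17.7 RPKM and 5 in scramble at 73.2 RPKM, and P4HA1 ranked 8 at 27.9 RPKM and 2 at 89.0 RPKM. HIF1A and EPAS1 thus stood above every member but PLOD1 in shFTO. Together the 36 members took 0.318% and 0.322% of reads in shFTO runs and 0.50% and 0.502% in scramble runs.

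Relatives of the members gave a comparison within gene families. Of 34 listed paralogs 25 were tested, 1 of them at least 2-fold lower and 1 at least 2-fold higher, against 6.19% and 5.18% of all tested genes. Their median log2 ratio was -0.01 (0.16 with plain library sizes). VEGFC, DDIT4L, INSIG1, FAM162B and P4HTM were listed with 0 reads in every table, and LOXL1 had 4 and 4 reads in shFTO and 10 and 6 in scramble. A gene listed with 0 reads may be silent or may have lost its reads in counting, which was not tested. In 22 of the 25 pairs the member had the lower log2 ratio, and in 3 the paralog did. The pairs rest on 15 members, which were chosen with earlier results of these data known. With a median of -0.84 for members and 0.01 for all tested genes, most pairs would fall this way with any partner. The tally is therefore a description. It includes ARNT, which was higher in shFTO, at 0.16 beside ARNT2 at 2.04. Each paralog was paired with 1 member, and LOXL3 and LOXL4 were set beside LOX alone. LOXL2, at 1.47, had a higher log2 ratio than both, and those pairs are not in the count. PDK1 had a log2 ratio of -1.67, against -0.67 for PDK3 and -0.28 for PDK2, which also phosphorylate pyruvate dehydrogenase. VEGFA had -1.25 and VEGFB -0.27, and CITED2 had -1.15 and CITED4 0.01. The demethylases KDM3A and KDM4B had -0.55 and -0.69, against 0.18 for KDM3B, 0.85 for KDM4A and -0.52 for KDM4C. MXI1, at -1.03, stood beside MXD1, MXD3 and MXD4 at 0.69, 0.15 and -0.01. The smallest gap was that of NDRG1 at -0.84 and NDRG2 at -0.82, whereas NDRG3 and NDRG4 had 0.17 and 0.29. Other relatives were PLOD3 at -0.43, ADM2 at -0.40, ERO1B at 0.23, AK3 at 0.42, PPP1R3B and PPP1R3D at -0.23 and 0.36, and LOXL4 at 0.37. The pairs in which the paralog was lower were LOX with LOXL3, at -2.10 on 20 and 18 reads in shFTO and 66 and 78 in scramble, AK4 with AK1, at -0.62, and TMEM45A with TMEM45B, at -0.64. ARNT2, the paralog at least 2-fold higher, rested on 56 reads in shFTO and 12 in scramble, with a ratio of 4.11 (2.18 to 8.43).

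**Figure D3:**
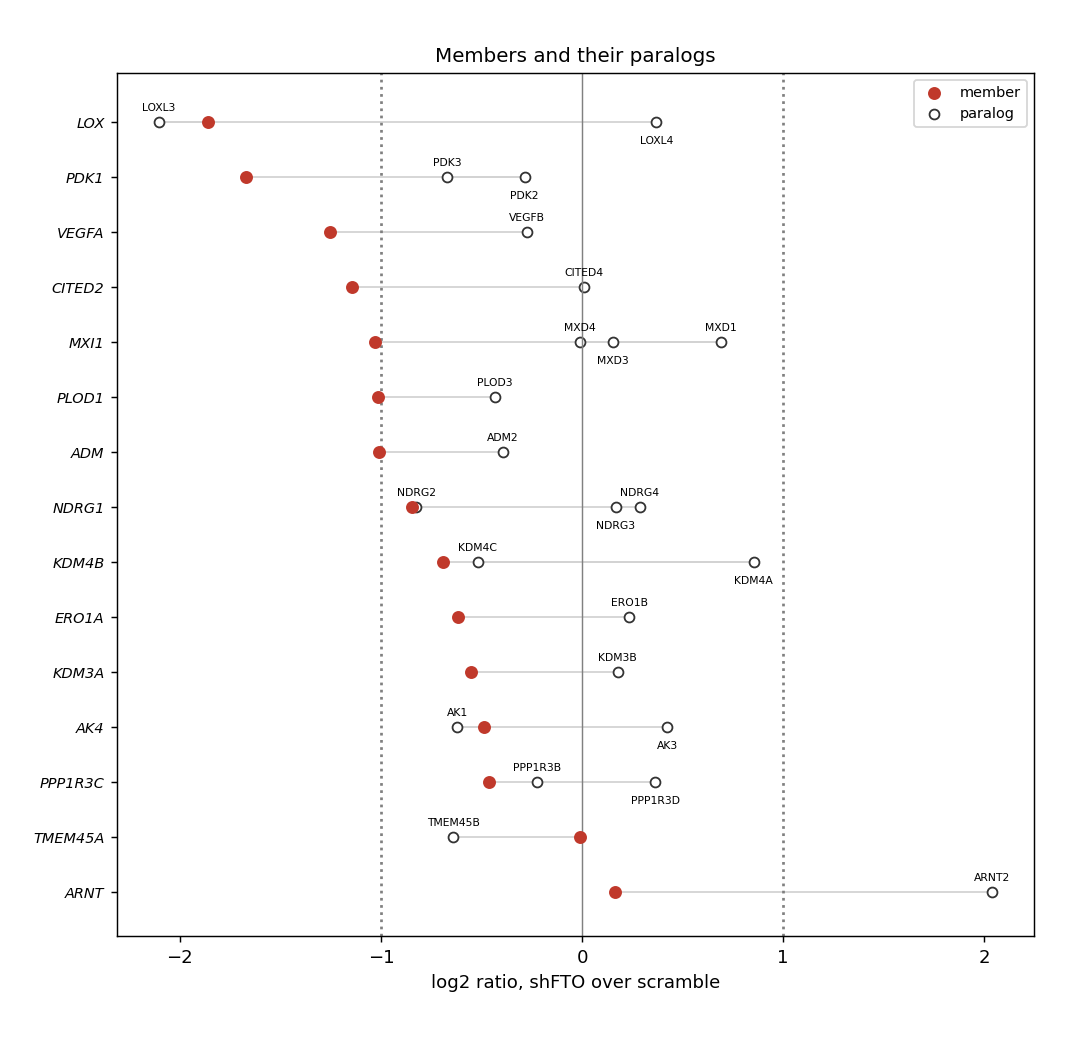
Log2 ratio of shFTO over scramble for the 15 members with a tested paralog (red) and for their tested paralogs except 1 that is not shown (open circles), ordered from the largest decrease at the top. Members lie left of every paralog drawn but LOXL3, AK1 and TMEM45B.

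Further genes of the pathway were set beside the members. Of 36 tested hypoxia targets outside the 36 members, 9 (25%) were at least 2-fold lower and none was at least 2-fold higher (median log2 ratio -0.76). The shares over all tested genes were 6.19% and 5.18%. By the counting interval 29 were lower and 3 higher, against 34.5% and 34.6% of all tested genes. The comparison lists, too, were chosen with earlier results of these data known, so their counts are a description. SPAG4 was 6.11-fold lower (5.35 to 7.0), the host gene of miR-210, MIR210HG, 2.82-fold (2.29 to 3.48) and the clock-linked repressor BHLHE40 2.66-fold (2.58 to 2.75). VLDLR, KDM6B and HMOX1 were higher, with ratios of 1.84 (1.60 to 2.13), 1.31 (1.22 to 1.41) and 1.17 (1.08 to 1.27). TGFA had a ratio of 1.04 (0.928 to 1.16). Of the 21 glycolysis genes, themselves partly HIF targets, 10 (47.6%) were at least 2-fold lower (median -0.87), against 6.19% of all tested genes. They were led among those above 5 CPM by PFKFB4 at 3.63-fold (3.38 to 3.90), ALDOC at 3.52-fold (3.29 to 3.77), HK2 at 3.49-fold and SLC2A1 at 3.16-fold lower. PFKP had a ratio of 1.06 (0.970 to 1.16).

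Regulators of HIF outside the members were counted in the same way. Of 19 tested, none was at least 2-fold lower and ARNT2 alone was at least 2-fold higher (median 0.07). The shares over all tested genes were 6.19% and 5.18%, from which a list this short cannot be told apart. The chaperone gene HSP90AA1, the ligase SIAH2 and the coactivators EP300 and CREBBP were higher, with ratios of 1.53 (1.52 to 1.54), 1.48 (1.42 to 1.54), 1.27 (1.23 to 1.32) and 1.25 (1.19 to 1.32). WSB1, RACK1, HSP90AB1 and OS9 were lower by 1.64-fold (1.57 to 1.72), 1.40-fold (1.38 to 1.42), 1.25-fold (1.24 to 1.25) and 1.22-fold (1.20 to 1.25). Several members, among them DDIT4, STC2 and VEGFA, are also known targets of ATF4, the transcription factor of the integrated stress response. Of 15 tested genes of that response none was at least 2-fold lower, which again cannot be told apart from 6.19% of all tested genes. NUPR1 was 4.38-fold higher (4.06 to 4.74), and the median log2 ratio was 0.19. SLC7A11, CTH and PHGDH were lower by 1.75-fold (1.56 to 1.97), 1.45-fold (1.22 to 1.74) and 1.15-fold (1.11 to 1.19), and SLC3A2, CEBPG and ATF3 had ratios of 1.32 (1.28 to 1.35), 1.28 (1.22 to 1.34) and 1.25 (1.11 to 1.42).

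**Figure D4:**
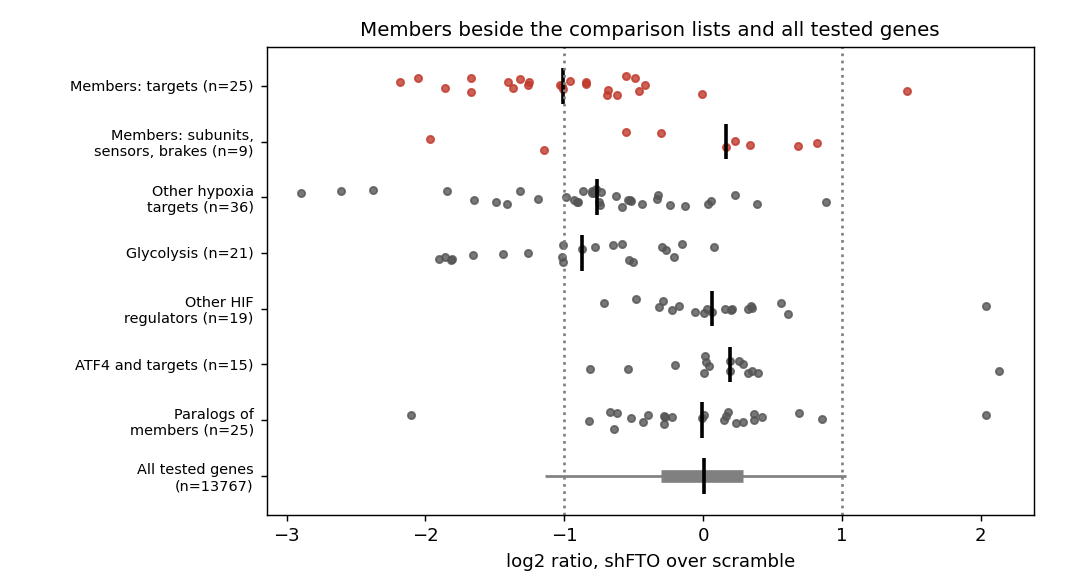
Log2 ratio of shFTO over scramble for each tested gene of the member groups (red) and of the comparison lists (grey), with medians as black bars. The bottom row gives the median, the middle 50% (thick) and the 5th to 95th percentiles (thin, -1.14 to 1.03) of all 13767 tested genes, and the dotted lines mark 2-fold.

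At a 1.5-fold threshold 21 members were lower and 3 higher, against 13.4% and 11.4% of all tested genes. By edgeR's quasi-likelihood test with each of the 4 deposited tables entered as a replicate, 27 members were called lower and 6 higher, against 33.4% and 33.2% of all tested genes. As the runs carry no spread beyond sampling, a call there tells these tables apart and says nothing of variation between cultures.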

How the data were processed

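Each deposited table lists whole-number read counts for Ensembl genes, which the authors did not scale. TopHat2 2.1.1, HTSeq 0.6.0 and build hg19 are named in the submitters' processing notes. Trizol extraction, DNase treatment and Illumina library preparation of total RNA are described per the labels' protocols. The annotation release and strand setting are not given in the sources used here. Symbols were matched by Ensembl identifier (51537 of 62893 genes), types and exon lengths from GENCODE release 29, and promoters from RefSeq (GRCh38.p14), both of another build than the counts. Nothing in the labels says that the 2 tables of a group came from separate cultures, and any p-value measures only the spread between tables.

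Runs were compared by chi-square over genes with at least 20 reads, summed per group, and set as ratios of CPM with TMM-scaled library sizes and exact 95% Clopper-Pearson intervals (scipy 1.17.1). Genes tested were those kept by edgeR's filterByExpr. edgeR 4.0.16, DESeq2 1.42.0 and limma-voom 3.58.1 (R 4.3.3) were run over all genes, two-sided with a Benjamini-Hochberg adjusted p under 0.05, and edgeR was tested on simulated data. Because the runs of a group were counted as 1 sample, edgeR's p-values for single genes are not printed here. Alternatives were 3 other scalings, 2 other filters, a 1.5-fold threshold, leaving out each run and the replicate block. Protein sequences were not used here. The members and lists were chosen with earlier results of these data known. Named genes were FTO, all members, paralogs with at least 20 reads, and up to 4 genes each way per comparison list with a mean of at least 5 CPM and the largest log2 ratios, except that some are not reported here.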

Additional observations from a re-analysis of the deposited data

How the results depend on the processing

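The number of members at least 2-fold lower was 15 with DESeq2 size factors, 12 with upper quartile scaling, 11 with plain library sizes, 17 with no filter on low counts (which adds HIF3A and STC1) and 14 with a mean of at least 5 CPM, and 14 or 15 without any 1 run. The median log2 ratio became -0.68 with plain library sizes, which raise all genes by 0.17, and lay between -0.92 and -0.80 under the other scalings and filters. At a mean of at least 5 CPM 0 members were at least 2-fold higher, since LOXL2 falls below that level, and at 1.5-fold 3 were. Over all these settings no member at least 2-fold apart changed its direction, and among tested members TMEM45A alone changed sign with the scaling (0.16 on the log2 scale with plain library sizes). With the replicate block edgeR called 27 members lower and 6 higher, the same counts as without it. The differences between the 2 runs of a group correlated at 0.0161 between the groups. As no difference past sampling noise was found, this cannot tell whether same-numbered runs belong together. DESeq2 called 27 lower and 5 higher. With 1 sample a group, variation between cultures is unknown, and EGLN2, LOXL2, EPO and ANKRD37, on at most 432 reads per group, are the least precise tested members.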

Other observations

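Other hypoxia-linked genes below the level set for naming had large ratios on few reads, and they were chosen here after their values were seen. IGFBP3, a binding protein of insulin-like growth factors, had 0.968 CPM in shFTO and 7.19 CPM in scramble, and the vasoconstrictor gene EDN1 had 0.830 CPM in shFTO and 4.32 CPM in scramble. ENG, a coreceptor of the TGF-beta family, had 0.553 CPM in shFTO and 1.99 CPM in scramble.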
